A study of Bos taurus with 15 samples.

Results

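Among the transcripts of bovine endometrium, the lining of the uterus, 63 entries of the deposited table carried the symbol of an amino acid, peptide or closely related transporter. They were picked by symbol, as members of the solute carrier families SLC1, SLC3, SLC6, SLC7, SLC15, SLC36, SLC38 and SLC43, out of 32671 entries. Earlier results of these data were known when the families were chosen. Of the 63, 49 reached at least 1 CPM (counts scaled to the size of each library) in at least 5 of the 15 libraries, and 14 were near-silent. Biopsies had been taken from 15 beef heifers (Bos taurus), 5 each labelled High-fertile, Sub-fertile and Infertile, at day 14 of pregnancy. All 3 classes had the same treatment per the labels: prostaglandin (PGF) and GnRH, then a progesterone insert (CIDR) with injected estradiol and progesterone, then PGF again at removal of the insert. Heifers without estrus were also given GnRH and estradiol benzoate. On day 7 every heifer received an embryo produced in vivo, and forceps later took endometrium from the same side of the uterus once it had been flushed. The sources used here do not give the rule behind the fertility classes, the outcome of each transfer or the heifers' ages. Poly(A) RNA was sequenced, 1 library per heifer, and the SD within a class is therefore over animals.

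Amino acids cannot cross membranes unaided, and each family moves a different part of the pool. SLC1 carriers take up glutamate or exchange small neutral amino acids, SLC38 carriers bring in glutamine and other neutral amino acids with sodium, and SLC7 carriers move cationic or large neutral amino acids, some of them only when joined to an SLC3 heavy chain. SLC15 carriers move di- and tripeptides or histidine, SLC36 carriers couple small amino acids to protons, and SLC6 carriers include those for taurine, creatine, glycine and several neurotransmitters. In ruminants the conceptus lives on uterine secretions before it attaches, and transport by the endometrium supplies the amino acids in that fluid.

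Library totals ran from 38017136 to 62858724 counts, and a count of 0 allowed a level of up to 0.0491 to 0.0783 CPM (3 counts, counting error only). The tissue label was checked against markers: all 13 epithelial markers were present, with EPCAM between 277 and 776 CPM. Of the 5 gland markers, PAEP was at 0 in every library, and FOXA2, CST6, SERPINA14 and SPP1 averaged 33.6, 39.6, 11.1 and 9.95 CPM. Of the 7 genes in the table that had been listed as trophoblast markers, TKDP1 and PAG11 were at 0 throughout, PAG2 and CDX2 reached at most 0.131 and 0.613 CPM, and IFNT2 (0.251 to 1.51 CPM), PAG1 (2.43 to 24.2 CPM) and PTGS2 (1.36 to 128 CPM) were found in every library. The cells behind these transcripts were not tested, so none is read as a sign of conceptus tissue. The summed level of the 10 smooth muscle markers ran from 1031 to 12910 CPM in the High-fertile class, from 738 to 6520 in the Sub-fertile and from 644 to 26510 in the Infertile. For the 7 leukocyte markers the ranges were 77.5 to 121, 69.3 to 83.4 and 56.8 to 117 CPM, and for the 6 markers of ciliated epithelium 67.7 to 167, 76.9 to 342 and 110.1 to 341 CPM. In bulk tissue, fewer cells of a type and less RNA per cell cannot be told apart. Infertile 2 stood apart, with a median rank correlation of 0.924 to the other libraries against 0.955 to 0.976 for the rest. The libraries also formed 3 sets by their levels of 428 pseudogene and ribosomal RNA entries, a split for which the labels name no batch. A set of 8 held High-fertile 2 to 5, Sub-fertile 3 and 4, and Infertile 1 and 4. A set of 5 held Sub-fertile 1, 2 and 5 and Infertile 3 and 5, and a set of 2 held High-fertile 1 and Infertile 2. No High-fertile library lay in the set of 5, so class and set overlap in part, and each class difference below was also fitted with the set as a covariate.

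Per transcript length, SLC1A1 was by far the most abundant member. The glutamate and aspartate carrier EAAT3, which it encodes, averaged 501 ± 251 FPKM (fragments scaled to transcript length and library size, SD over 15 libraries), 9.54 times the next member. It ranked 96 among all entries and held 55.7% of the 901 FPKM summed over the 63 members. The next members were SLC38A2, a sodium-coupled carrier of small neutral amino acids (52.5 ± 9.54 FPKM), and SLC3A2, the heavy chain 4F2hc (40.7 ± 6.60 FPKM). SLC43A1, the large neutral amino acid carrier LAT3, averaged 29.6 ± 8.81 FPKM and SLC38A10 22.8 ± 5.91 FPKM. The ranges of SLC38A2 (33.5 to 68.5 FPKM) and SLC3A2 (30.3 to 51.4 FPKM) overlapped, as did those of SLC43A1 (17.4 to 41.6 FPKM) and SLC38A10 (14.5 to 29.2 FPKM). In all, 14 members averaged at least 10 FPKM, 28 lay between 1 and 10 FPKM and 7 expressed members lay under 1 FPKM, with a median of 4.33 FPKM over the 49.

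**Figure D1:**
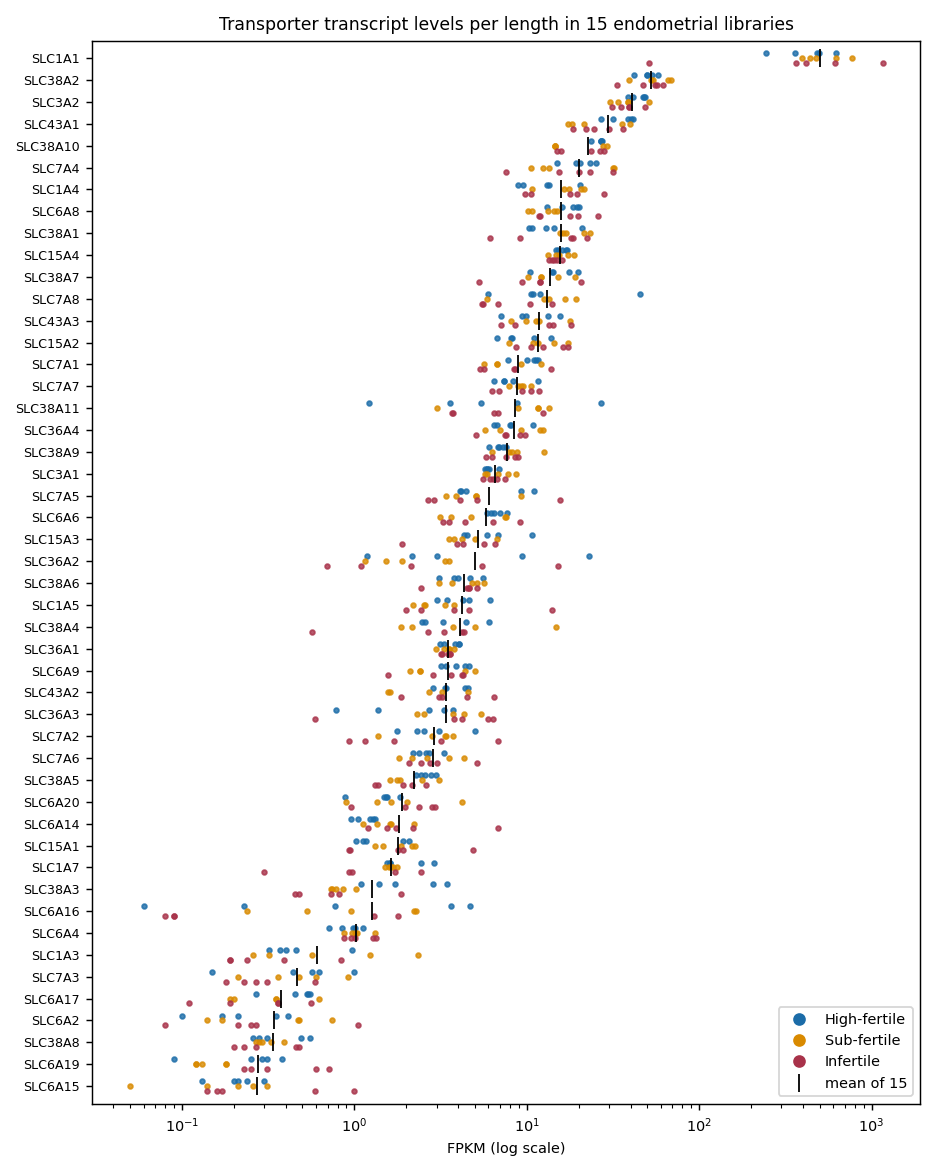
FPKM of 48 of the 49 expressed transporters (rows, ordered by mean) in the 15 libraries, on a log axis; each point is a library, coloured by fertility class and set slightly apart by class, and the black tick is the mean of 15. SLC1A1 stands above all others at a mean of 501 FPKM, with 1 Infertile library at 51.5 FPKM, and the classes are mixed in nearly every row.

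The 14 near-silent members were SLC1A2, SLC1A6, SLC6A3, SLC6A5, SLC6A7, SLC6A11, SLC6A12, SLC6A13, SLC6A18, SLC7A9, SLC7A10, SLC7A11, SLC7A14 and SLC15A5. SLC1A6, SLC6A18 and SLC7A14 gave 2 counts each over all 15 libraries. SLC7A11, the cystine exchanger xCT, gave 192 counts and at most 0.546 CPM, in Sub-fertile 5. Some reached 1 CPM in only 1 library each. SLC6A5 was at 1.28 CPM and SLC7A10 at 1.13 CPM in Infertile 2, SLC6A3 at 1.25 CPM in Sub-fertile 3 and SLC6A7 at 1.15 CPM in High-fertile 2. SLC1A2 reached at most 0.918 CPM, in Sub-fertile 4. Among the expressed members the nearest to the threshold were SLC6A15, at or above 1 CPM in 5 libraries, and SLC6A17 and SLC6A19, in 6 each. For SLC6A19 these were High-fertile and Infertile libraries, and no Sub-fertile library reached 1 CPM. The filter on low counts passed 55 members, the 49 and 6 near-silent ones.

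The classes were compared pairwise in 1 model over all genes, in which none of 19962 genes, and so none of the members, passed an adjusted p of 0.05 in any comparison (edgeR, 0% of genes in each). The smallest adjusted p of a member was 0.360 for Sub-fertile against High-fertile, 0.435 for Infertile against High-fertile and 0.998 for Infertile against Sub-fertile (edgeR, Benjamini-Hochberg over all genes). Member counts are therefore given at an unadjusted p of 0.05, beside the share of all genes there. In Sub-fertile against High-fertile, 2 of 49 expressed members had such a p, SLC38A3 and SLC6A8, both lower, against 13.7% of all genes (6.58% higher and 7.14% lower). Infertile against High-fertile gave 2 of 49, SLC6A14 higher and SLC38A3 lower, against 11% of all genes (7.14% higher and 3.89% lower). Infertile against Sub-fertile gave 3 of 49, SLC6A19 and SLC6A8 higher and SLC1A3 lower, against 2.63% of all genes (1.91% higher and 0.721% lower). The members' shares, 4.08%, 4.08% and 6.12%, were below the background in the comparisons with High-fertile and above it in the other one. In that last count, SLC6A19 had entered the 49 through High-fertile and Infertile libraries only. Tested over all 3 classes at once, an unadjusted p under 0.05 was found for 3 of 49 (SLC38A3, SLC6A19 and SLC6A14) against 8.42% of all genes, with an adjusted p of 0.550 each in edgeR. With the library set as a covariate 2, 3 and 1 members had an unadjusted p under 0.05 in the 3 pairwise comparisons, against 2.51%, 7.66% and 1.75% of all genes.

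The median log2 fold change of the 49 was -0.11 for Sub-fertile against High-fertile (21 higher, 28 lower), beside 0.01 over all genes tested. For Infertile against High-fertile it was -0.07 (22 higher, 27 lower), beside 0.04 over all genes. The 3 comparisons share class libraries with one another. Classes did not overlap for SLC38A3 alone in Sub-fertile against High-fertile (5.07% of all genes, 2.81% with the Sub-fertile libraries lower). In Infertile against High-fertile no member separated the classes (2.22% of all genes), and in Infertile against Sub-fertile SLC6A19 did (0.205% of all genes, 0.12% with the Infertile libraries higher). As SLC6A19 passed the level cut through no Sub-fertile library, its separation from that class is a description and not independent of the cut. DESeq2 gave 18, 33 and 10 genes past an adjusted p of 0.05 in the 3 comparisons (0.0909%, 0.167% and 0.0505% of those with a value) and limma-voom 0, 1 and 1 (0%, 0.00501% and 0.00501%), and no member was among them. At an unadjusted p, DESeq2 gave 4 members in each comparison (16.7%, 12.9% and 3.05% of genes) and limma-voom 1, 4 and 1 (13.9%, 10.3% and 1.6%).

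**Figure D2:**
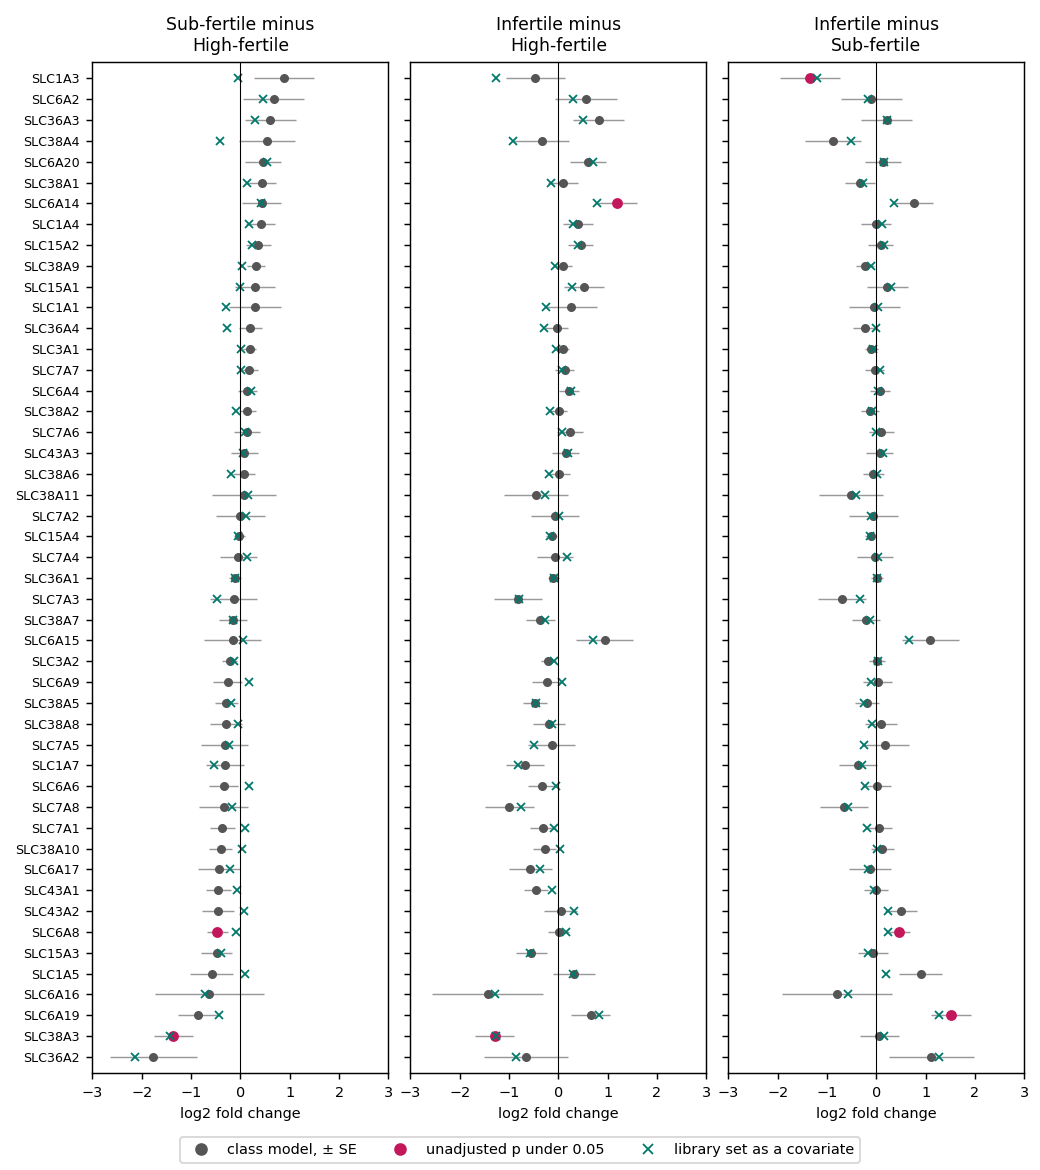
Log2 fold change of 48 of the 49 expressed transporters in the 3 class comparisons (circles, with bars of 1 SE), in one order of rows. Red circles have an unadjusted p under 0.05 (2, 2 and 3 members), crosses give the value with the library set as a covariate, and most bars reach or cross 0.

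SLC38A3 had the smallest unadjusted p of the members in both comparisons with High-fertile. It encodes SNAT3, a sodium-coupled carrier of glutamine, histidine and asparagine. In High-fertile 1 to 5 SLC38A3 stood at 4.10, 3.21, 8.50, 5.15 and 10.2 CPM. In Sub-fertile 1 to 5 it stood at 2.53, 2.94, 2.12, 2.38 and 2.18 CPM and in Infertile 1 to 5 at 1.40, 1.38, 2.31, 5.39 and 2.20 CPM. Every High-fertile library was above every Sub-fertile one, and 4 of 5 Infertile libraries were below every High-fertile one, the exception being Infertile 4. Means were 6.23 ± 2.98, 2.43 ± 0.329 and 2.54 ± 1.65 CPM (SD, 5 libraries each). On the log2 scale the Sub-fertile class was lower by -1.36 ± 0.40 (SE; edgeR unadjusted p = 0.00377, adjusted p = 0.360) and the Infertile class by -1.30 ± 0.40 (unadjusted p = 0.00515, adjusted p = 0.435). With the library set as a covariate the differences were -1.42 (unadjusted p = 0.00971) and -1.27 (unadjusted p = 0.00807), and with the smooth muscle markers as a covariate -1.475 and -1.504. Over each library left out in turn they ran from -1.52 to -1.12 and from -1.76 to -1.06, with an unadjusted p under 0.05 each time. Within the set of 8 the Sub-fertile difference was -1.599 (unadjusted p = 0.04299) and the Infertile one -1.005 (unadjusted p = 0.154), the latter over 4 High-fertile and 2 Infertile libraries. The leukocyte marker sum was also highest on average in the High-fertile class, at 103 CPM against 74.7 and 83.8. So was the sum of the 8 endothelial markers, at 1093 CPM against 881 and 845 CPM, with ranges of 852 to 1579, 707 to 1068 and 691 to 1024 CPM, and High-fertile 5 and 3, the highest libraries for SLC38A3, were also highest for it. The part of either cell type in the difference was not tested.

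The related system N carrier SLC38A5, which moves glutamine and serine, was most even in the High-fertile class. For SLC38A5 the High-fertile libraries read 5.39, 4.74, 5.80, 5.03 and 4.39 CPM, the Sub-fertile ones 5.95, 4.68, 3.03, 3.51 and 3.62 CPM and the Infertile ones 3.98, 4.15, 2.56, 4.92 and 2.604 CPM. The Infertile mean of 3.64 ± 1.03 CPM was below the High-fertile mean of 5.07 ± 0.55 CPM, with overlap from Infertile 4, and the log2 difference of -0.48 ± 0.24 missed the threshold (edgeR unadjusted p = 0.0629).

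Of the system A carriers, which take up alanine, glutamine and other small neutral amino acids, SLC38A2 was evenly high. In High-fertile 1 to 5 SLC38A2 stood at 241, 202, 258, 244 and 276 CPM. In Sub-fertile 1 to 5 it stood at 318, 247, 182, 266 and 332 CPM and in Infertile 1 to 5 at 172, 271, 256, 224 and 304 CPM. The class ranges overlapped throughout, and the log2 differences from High-fertile were 0.14 ± 0.18 and 0.01 ± 0.18 (edgeR). Levels of SLC38A4 were 10.2, 10.6, 18.3, 13.7 and 24.9 CPM in the High-fertile class, 60.3, 15.2, 7.46, 9.14 and 21.0 CPM in the Sub-fertile and 2.51, 17.1, 17.1, 13.4 and 11.3 CPM in the Infertile. Sub-fertile 1 was the highest library for SLC38A4, and Infertile 1, at 2.51 CPM, was lowest, next to Sub-fertile 3 at 7.46 CPM. The Infertile minus Sub-fertile difference of SLC38A4 was -0.88 ± 0.56 on the log2 scale and -0.10 without Sub-fertile 1.

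SLC38A10 and SLC38A11 are less well known members of the family. In High-fertile 1 to 5 SLC38A10 stood at 111, 129, 127, 128 and 126 CPM. In Sub-fertile 1 to 5 it stood at 68.4, 67.3, 125, 141 and 68.8 CPM and in Infertile 1 to 5 at 117, 123, 71.5, 128 and 72.4 CPM. SLC38A10 fell into separate groups of libraries that were not the classes: 67.3 to 72.4 CPM in the set of 5 and 110.9 to 141 CPM in the other 10. The Sub-fertile minus High-fertile difference was -0.40 ± 0.24 (log2; edgeR unadjusted p = 0.112), and with the library set as a covariate it was 0.03. For SLC38A11 the High-fertile libraries read 11.7, 19.1, 7.79, 58.5 and 2.62 CPM, the Sub-fertile ones 6.47, 24.7, 28.2, 25.8 and 19.3 CPM and the Infertile ones 28.6, 7.91, 13.5, 7.76 and 15.1 CPM. High-fertile 4 had the highest and High-fertile 5 the lowest level of SLC38A11, 22.3 times apart within 1 class. SLC38A9, a lysosomal carrier that reports arginine to the growth kinase mTORC1, showed the opposite arrangement to SLC38A10. In High-fertile 1 to 5 SLC38A9 stood at 8.45, 10.6, 9.59, 9.59 and 10.1 CPM. In Sub-fertile 1 to 5 it stood at 17.4, 12.04, 10.5, 8.96 and 11.6 CPM and in Infertile 1 to 5 at 8.56, 8.63, 11.9, 10.4 and 12.3 CPM. All 5 libraries of the set of 5 were above the other 10 (11.6 to 17.4 against 8.45 to 10.6 CPM). Its Sub-fertile minus High-fertile difference of 0.32 ± 0.18 (edgeR unadjusted p = 0.0943) was 0.02 with the set as a covariate. Over the 11 SLC38 members, all expressed, the median log2 fold change was 0.07 for Sub-fertile and -0.28 for Infertile against High-fertile. In each comparison 1 of the 11 had an unadjusted p under 0.05 (edgeR), against 13.7% and 11% of all genes.

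**Figure D3:**
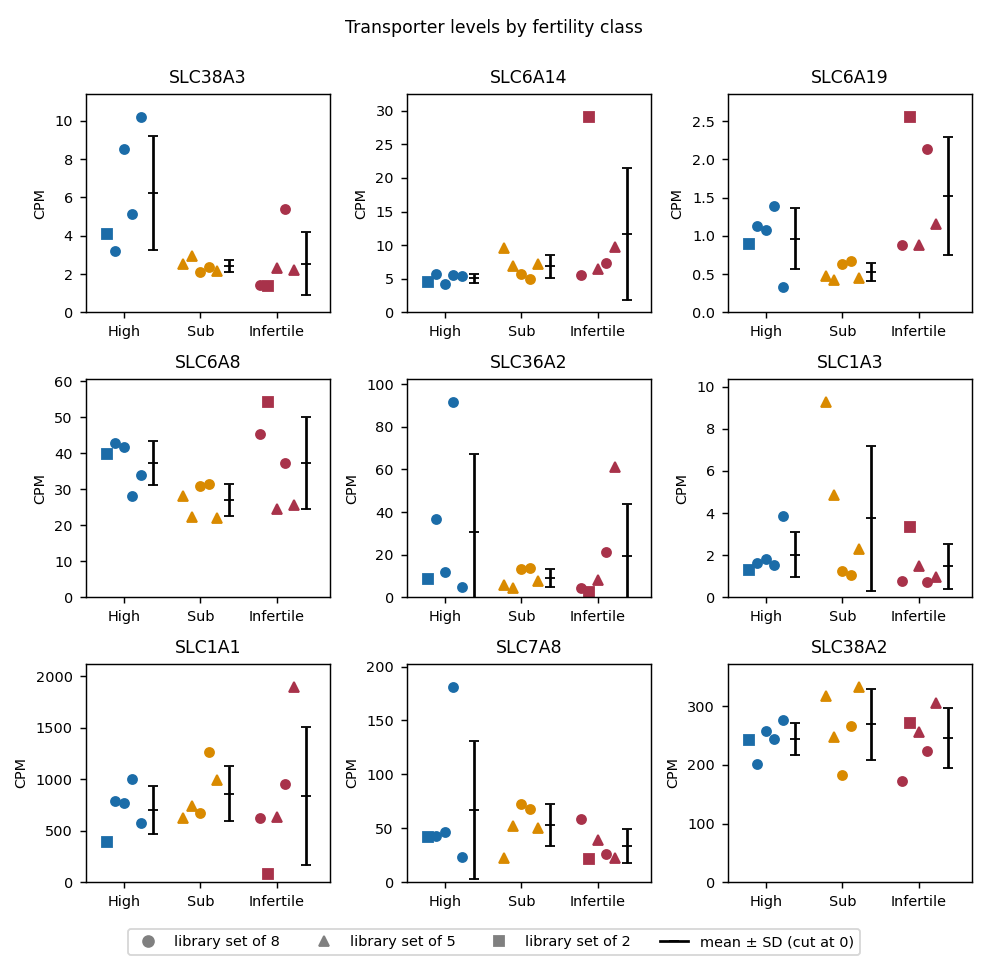
CPM of 9 transporters by fertility class; each symbol is a library, its shape gives the library set, and the black bar is the class mean ± SD over 5 libraries, cut at 0. SLC38A3 shows High-fertile libraries at 3.21 to 10.2 CPM against 2.12 to 2.94 CPM in Sub-fertile ones, and single libraries lead SLC6A14, SLC36A2, SLC1A1 and SLC7A8.

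Among the SLC6 carriers of neutral amino acids, SLC6A19 and SLC6A14 differed between classes before adjustment. SLC6A19 encodes B0AT1, the sodium-coupled carrier of neutral amino acids known from intestine and kidney. SLC6A19 measured 0.890, 1.13, 1.07, 1.39 and 0.325 CPM in the High-fertile libraries, 0.470, 0.417, 0.637, 0.672 and 0.455 CPM in the Sub-fertile ones and 0.879, 2.55, 0.883, 2.14 and 1.15 CPM in the Infertile ones. Each Infertile library was above each Sub-fertile one, while the High-fertile libraries overlapped both. These are low levels, near 1 CPM, with 0.277 FPKM on average, and SLC6A19 passed the level cut through High-fertile and Infertile libraries only. The Infertile minus Sub-fertile difference was 1.51 ± 0.41 on the log2 scale (edgeR unadjusted p = 0.00202, adjusted p = 0.998). With the library set as a covariate it was 1.27 (unadjusted p = 0.00634), it ran from 1.25 to 1.66 with each library left out, and in the set of 8, with 2 libraries a class, it was 1.203 (unadjusted p = 0.127). The Sub-fertile minus High-fertile difference of -0.85 ± 0.40 (unadjusted p = 0.0509) shrank to -0.44 with the set as a covariate.

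SLC6A14, ATB0,+, takes up most neutral and cationic amino acids. For SLC6A14 the High-fertile libraries read 4.55, 5.71, 4.16, 5.63 and 5.35 CPM, the Sub-fertile ones 9.58, 6.83, 5.64, 5.01 and 7.12 CPM and the Infertile ones 5.55, 29.0, 6.41, 7.41 and 9.75 CPM. Infertile 2 was far above all other libraries, and the other 4 Infertile libraries, at 5.55 to 9.75 CPM, overlapped the High-fertile range of 4.16 to 5.71 CPM. The Infertile minus High-fertile difference was 1.195 ± 0.391 on the log2 scale (edgeR unadjusted p = 0.00810, adjusted p = 0.435). It was 0.77 with the library set as a covariate (unadjusted p = 0.0489). Without Infertile 2 it was 0.52, still at an unadjusted p under 0.05. Without both libraries of the set of 2 it was 0.48 (unadjusted p = 0.06545), and within the set of 8 it was 0.30. Against Sub-fertile the Infertile difference of 0.77 ± 0.39 was 0.09 without Infertile 2.

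SLC6A20, the proline and imino acid carrier SIT1, and SLC6A15, a carrier of branched-chain amino acids, overlapped between classes. SLC6A20 measured 14.6, 17.7, 14.9, 8.59 and 14.3 CPM in the High-fertile libraries, 19.2, 8.47, 39.4, 13.5 and 15.8 CPM in the Sub-fertile ones and 9.72, 18.7, 21.9, 26.7 and 28.9 CPM in the Infertile ones. Sub-fertile 3 was highest and Sub-fertile 2 lowest, so the Sub-fertile class spanned the range of all 15 libraries. For SLC6A15 the High-fertile libraries read 1.16, 0.793, 0.964, 0.835 and 0.508 CPM, the Sub-fertile ones 1.02, 1.204, 0.205, 0.557 and 0.842 CPM and the Infertile ones 2.47, 3.87, 0.612, 0.525 and 0.689 CPM. Infertile 1 and Infertile 2 held the 2 highest levels of SLC6A15, and the Infertile minus Sub-fertile difference of 1.10 ± 0.58 (log2) was 0.49 without Infertile 2.

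Creatine and taurine carriers were the most abundant SLC6 members. SLC6A8 supplies cells with creatine. SLC6A8 measured 39.7, 42.7, 41.8, 28.2 and 34.0 CPM in the High-fertile libraries, 28.2, 22.4, 30.9, 31.4 and 22.01 CPM in the Sub-fertile ones and 45.2, 54.1, 24.5, 37.1 and 25.7 CPM in the Infertile ones. The Sub-fertile mean of 27.0 ± 4.53 CPM was below the High-fertile mean of 37.3 ± 6.09 and the Infertile mean of 37.3 ± 12.7 CPM, with overlap in both cases. The log2 difference from High-fertile was -0.47 ± 0.21 (edgeR unadjusted p = 0.04575, adjusted p = 0.360) and -0.08 with the library set as a covariate (unadjusted p = 0.617). That of Infertile against Sub-fertile was 0.47 ± 0.21 (unadjusted p = 0.0447, adjusted p = 0.998) and 0.24 with the covariate. With each library left out in turn the former ran from -0.55 to -0.40 and the latter from 0.30 (without Infertile 2) to 0.59. Each kept an unadjusted p under 0.05 in 4 of 10 cases: the former lost it without High-fertile 1, 2 or 3 or Sub-fertile 1, 2 or 5, the latter without Sub-fertile 1, 2 or 5 or Infertile 1, 2 or 4. In the set of 5, SLC6A8 lay at 22.01 to 28.24 CPM, and in the set of 8 at 28.23 to 45.25 CPM.

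SLC6A6, the taurine carrier, followed the library sets in the same way. For SLC6A6 the High-fertile libraries read 36.2, 39.6, 42.9, 47.7 and 37.9 CPM, the Sub-fertile ones 19.1, 28.4, 44.0, 48.0 and 22.3 CPM and the Infertile ones 28.5, 54.8, 20.8, 38.01 and 20.5 CPM. The set of 5 held 19.1 to 28.4 CPM and the other 10 libraries 28.5 to 54.8 CPM. SLC6A16, an orphan member of the family, had the widest span of all expressed transporters. SLC6A16 measured 0.865, 0.218, 2.89, 13.8 and 17.6 CPM in the High-fertile libraries, 0.888, 8.10, 8.26, 2.06 and 3.57 CPM in the Sub-fertile ones and 7.16, 0.319, 0.340, 0.311 and 5.004 CPM in the Infertile ones. Its highest and lowest libraries, High-fertile 5 and High-fertile 2, were of the same class and 80.6 times apart, and no class difference passed an unadjusted p of 0.05. The neurotransmitter carriers SLC6A2 and SLC6A4 and the glycine carrier SLC6A9 had no unadjusted p under 0.05 in any comparison, nor did SLC6A17.

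In the SLC1 family, SLC1A1 varied widely within every class. In High-fertile 1 to 5 SLC1A1 stood at 389, 787, 768.5, 1002 and 573 CPM. In Sub-fertile 1 to 5 it stood at 627, 737, 675, 1268 and 994 CPM and in Infertile 1 to 5 at 620.4, 80.6, 636, 952 and 1895 CPM. Infertile 2 and Infertile 5 held the lowest and highest of the 15 levels, 23.5 times apart. Their stroma marker sums were the highest and lowest of the 15, 38607 and 9882 CPM. Their epithelial marker sums were 1491 and 2778 CPM, inside the 1045 to 3272 CPM of all 15. The part of cell composition in the SLC1A1 levels was not tested. Means were 704 ± 233, 860.1 ± 268 and 837 ± 670 CPM (SD, 5 libraries each), and the log2 differences from High-fertile were 0.29 ± 0.53 and 0.25 ± 0.53 (edgeR unadjusted p = 0.590 and 0.642). The Infertile difference was -0.30 without Infertile 5 and 0.54 without Infertile 2, so its direction rested on single libraries. As a share of the members' summed counts, SLC1A1 made up 5.64% in Infertile 2 and 56.9% in Infertile 5.

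SLC1A3, the glutamate carrier EAAT1, was low. For SLC1A3 the High-fertile libraries read 1.29, 1.61, 1.84, 1.51 and 3.88 CPM, the Sub-fertile ones 9.27, 4.84, 1.23, 1.08 and 2.30 CPM and the Infertile ones 0.796, 3.32, 1.495, 0.740 and 0.970 CPM. Sub-fertile 1 and 2 had the highest levels and the other Sub-fertile libraries lay among the rest. The Infertile minus Sub-fertile log2 difference was -1.35 ± 0.61 (edgeR unadjusted p = 0.0419, adjusted p = 0.998), -0.69 without Sub-fertile 1 (unadjusted p = 0.231) and -1.204 with the library set as a covariate (unadjusted p = 0.0909). It kept an unadjusted p under 0.05 in 4 of 10 cases with a library left out, and lost it without Sub-fertile 1 or 2 or Infertile 1, 3, 4 or 5. Levels of SLC1A7 were 7.49, 7.38, 7.14, 11.4 and 13.3 CPM in the High-fertile class, 7.70, 6.78, 7.26, 8.36 and 7.397 CPM in the Sub-fertile and 4.59, 1.38, 7.61, 10.9 and 4.60 CPM in the Infertile. Infertile 2 was the lowest library for SLC1A7, a glutamate carrier first described in retina, and its Infertile minus High-fertile difference of -0.68 ± 0.38 (log2; unadjusted p = 0.0962) was -0.43 without that library. This difference was -0.83 with the library set as a covariate (unadjusted p = 0.0458), and ran from -1.03 to -0.43 with each library left out.

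The neutral amino acid exchangers of the family, SLC1A4 (ASCT1) and SLC1A5 (ASCT2, a glutamine carrier), did not run together. SLC1A4 measured 39.5, 59.9, 91.2, 58.8 and 42.5 CPM in the High-fertile libraries, 91.4, 46.8, 71.0, 98.7 and 79.5 CPM in the Sub-fertile ones and 50.3, 42.8, 76.6, 85.4 and 129 CPM in the Infertile ones. Infertile 5 was highest and High-fertile 1 lowest for SLC1A4. For SLC1A5 the High-fertile libraries read 13.7, 8.96, 12.8, 18.3 and 10.2 CPM, the Sub-fertile ones 7.41, 7.45, 9.62, 11.6 and 6.58 CPM and the Infertile ones 14.5, 41.0, 5.73, 10.9 and 7.404 CPM. For SLC1A5 the highest library was Infertile 2 and the next High-fertile 4, and all libraries of the set of 5 were below the other 10. The Infertile minus Sub-fertile difference of SLC1A5 was 0.90 ± 0.43 on the log2 scale (edgeR unadjusted p = 0.0566), 0.18 without Infertile 2 and 0.19 with the set as a covariate.

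Heavy chains, which carry their partners to the membrane, were among the steadier members. SLC3A2 measured 81.4, 86.3, 100, 99.8 and 101 CPM in the High-fertile libraries, 63.1, 69.3, 78.2, 111 and 81.6 CPM in the Sub-fertile ones and 87.1, 64.6, 71.6, 99.1 and 84.6 CPM in the Infertile ones. The 15 libraries spanned less than 2-fold, and both classes differed from High-fertile by little, -0.22 ± 0.15 and -0.20 ± 0.15 on the log2 scale. For SLC3A1 the High-fertile libraries read 16.7, 14.6, 14.3, 14.5 and 13.7 CPM, the Sub-fertile ones 20.8, 18.6, 13.8, 14.3 and 16.7 CPM and the Infertile ones 14.4, 15.3, 17.4, 14.6 and 16.6 CPM. SLC3A1, the heavy chain rBAT of the cystine and dibasic amino acid carrier, had a coefficient of variation (CV, SD as a share of the mean) of 12.8%, although its known partner SLC7A9 was near-silent at no more than 0.148 CPM.

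Light chains of SLC3A2 were more variable than the heavy chain. SLC7A5 measured 18.1, 16.4, 16.8, 45.3 and 37.3 CPM in the High-fertile libraries, 20.4, 13.5, 15.2, 21.1 and 37.5 CPM in the Sub-fertile ones and 12.48, 62.2, 20.2, 16.2 and 11.03 CPM in the Infertile ones. SLC7A5, the large neutral amino acid exchanger LAT1, was highest in Infertile 2 and lowest in Infertile 5, and High-fertile 4 and 5 and Sub-fertile 5 were also high. For SLC7A8 the High-fertile libraries read 41.6, 42.5, 46.8, 181 and 23.4 CPM, the Sub-fertile ones 22.8, 51.8, 72.7, 67.6 and 50.05 CPM and the Infertile ones 58.5, 21.7, 39.6, 26.2 and 22.2 CPM. SLC7A8 (LAT2) was highest in High-fertile 4, and the Infertile minus High-fertile log2 difference of -0.99 ± 0.50 (edgeR unadjusted p = 0.0633) was -0.20 without that library. Between the log2 CPM of SLC3A2 and each of its 4 expressed light chains, Pearson's r over 15 libraries was -0.04 for SLC7A5 (Spearman's rho 0.05), -0.74 for SLC7A6 (rho -0.59), 0.37 for SLC7A7 (rho 0.32) and 0.36 for SLC7A8 (rho 0.34). In permutation tests adjusted over the 4 pairs, p was 0.892, 0.00684, 0.261 and 0.261 for r and 0.873, 0.0978, 0.334 and 0.334 for rho, and unadjusted p was 0.892, 0.00171, 0.178 and 0.196 for r and 0.873, 0.0245, 0.250 and 0.216 for rho. Without Sub-fertile 1 and Infertile 2, the libraries farthest from the median of SLC3A2, r was 0.35, -0.50, 0.26 and 0.09, and within the set of 8 it was 0.51, -0.20, 0.67 and -0.08. The negative relation with SLC7A6, which encodes the cationic and neutral amino acid exchanger y+LAT2, missed the threshold without those libraries (permutation p = 0.0799) and within the set of 8 (exact permutation p = 0.630), so its call rested in part on them. With class means subtracted its r was -0.77 (permutation p = 0.00104).

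Cationic amino acid carriers supply arginine and lysine, and SLC7A1 (CAT1) averaged 8.94 FPKM against 2.88 FPKM for SLC7A2 (CAT2). SLC7A1 measured 69.4, 53.8, 80.9, 78.9 and 75.9 CPM in the High-fertile libraries, 38.6, 45.2, 61.4, 86.4 and 46.9 CPM in the Sub-fertile ones and 63.1, 93.5, 35.5, 57.0 and 40.3 CPM in the Infertile ones. Its levels in the set of 5, 35.5 to 46.9 CPM, were all below those of the other 10 libraries, 53.8 to 93.5 CPM. The Sub-fertile minus High-fertile log2 difference of -0.37 ± 0.26 became 0.10 once the set entered the model. For SLC7A2 the High-fertile libraries read 36.8, 22.7, 18.6, 13.01 and 16.8 CPM, the Sub-fertile ones 20.6, 26.8, 9.64, 25.5 and 24.9 CPM and the Infertile ones 52.9, 12.2, 22.5, 6.66 and 8.60 CPM. SLC7A2 was highest in Infertile 1 and lowest in Infertile 4, and the class means, 21.6 ± 9.20, 21.5 ± 7.01 and 20.6 ± 19.1 CPM, lay within 1 SD of each other. SLC7A3 and SLC7A4, the other expressed members of this branch, had no unadjusted p under 0.05 in edgeR. The median log2 difference of these 4 from High-fertile was -0.09 for Sub-fertile and -0.19 for Infertile, and with the set as a covariate 3 of 4 were above 0 for Sub-fertile and 2 of 4 for Infertile.

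Of the peptide and histidine carriers, SLC15A2 (PEPT2) takes up di- and tripeptides. SLC15A2 measured 17.9, 23.9, 17.8, 30.4 and 14.7 CPM in the High-fertile libraries, 17.05, 23.2, 36.5, 26.2 and 31.5 CPM in the Sub-fertile ones and 28.9, 18.7, 33.9, 22.4 and 38.8 CPM in the Infertile ones. The means were 20.9 ± 6.26, 26.9 ± 7.52 and 28.5 ± 8.20 CPM, with overlap between all classes, and the Infertile minus High-fertile log2 difference was 0.45 ± 0.25 (edgeR unadjusted p = 0.0961). SLC15A3, a lysosomal peptide and histidine carrier found in immune cells, had its highest level in High-fertile 5. For SLC15A3 the High-fertile libraries read 12.6, 8.35, 10.9, 8.14 and 19.8 CPM, the Sub-fertile ones 12.4, 6.90, 7.53, 9.55 and 6.60 CPM and the Infertile ones 3.73, 11.9, 7.66, 10.2 and 7.48 CPM. Its differences from High-fertile were -0.48 ± 0.31 and -0.55 ± 0.31 on the log2 scale (unadjusted p = 0.149 and 0.103). Without High-fertile 5 they were -0.22 and -0.30. The lysosomal carrier SLC15A4 was among the steadiest members, with a CV of 9.81%, and the intestinal type SLC15A1 averaged 1.79 FPKM.

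Proton-coupled carriers included the most and the least variable members. SLC36A2 (PAT2) moves glycine, proline and alanine. SLC36A2 measured 8.48, 36.9, 11.9, 91.5 and 4.68 CPM in the High-fertile libraries, 5.95, 4.49, 13.4, 13.7 and 7.53 CPM in the Sub-fertile ones and 4.59, 2.68, 8.13, 21.2 and 61.1 CPM in the Infertile ones. High-fertile 4 and Infertile 5 were far above the rest, and the CV over 15 libraries was 127%. The Sub-fertile mean of 9.02 ± 4.29 CPM was below the High-fertile mean of 30.7 ± 36.3 CPM, with overlap in most libraries. On the log2 scale the difference was -1.77 ± 0.88 (edgeR unadjusted p = 0.0624), -2.13 with the library set as a covariate (unadjusted p = 0.0379) and -0.78 without High-fertile 4. SLC36A1 (PAT1), a lysosomal carrier of small amino acids, is a neighbour of SLC36A2, which lies between it and SLC36A3 in the gene order of the assembly ARS-UCD2.0. At 18.01 to 24.65 CPM, SLC36A1 had a CV of 9.78%, so these neighbours held the lowest and the highest CV of the 49 expressed members. Among the other neighbours, SLC38A2 lies between SLC38A4 and SLC38A1, and their mean levels were 52.5, 4.09 and 15.8 FPKM. SLC6A19 lies next to SLC6A18, which gave 2 counts in all.

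SLC43 carriers move large neutral amino acids, apart from SLC43A3, which carries purine bases. For SLC43A1 the High-fertile libraries read 44.7, 52.4, 66.5, 64.7 and 68.3 CPM, the Sub-fertile ones 28.5, 29.6, 63.4, 60.6 and 35.6 CPM and the Infertile ones 43.1, 48.8, 29.5, 58.3 and 37.2 CPM. The set of 5 held 28.5 to 37.2 CPM and the other 10 libraries 43.1 to 68.3 CPM. Differences from High-fertile were -0.45 ± 0.25 for both classes on the log2 scale (edgeR unadjusted p = 0.0919 and 0.0885), and -0.08 and -0.13 with the set as a covariate. The table has a further entry of the same name with a suffix, at 29.2 to 48.5 CPM, so reads may be divided between them and the level is uncertain. The suffixed entry alone differed from High-fertile by -0.27 in Sub-fertile and -0.35 in Infertile on the log2 scale. Summed over both entries, mean levels were 101.6, 78.6 and 76.46 CPM in the High-fertile, Sub-fertile and Infertile classes. The ratio of the main to the suffixed entry was 1.39 to 1.55 in the set of 8, 1.31 to 1.56 in the set of 2 and 0.912 to 1.15 in the set of 5. SLC38A9 and SLC6A9 have such entries too, at 5.76 to 14.3 and 0.153 to 1.21 CPM. SLC43A2 measured 19.1, 14.7, 15.1, 12.7 and 19.9 CPM in the High-fertile libraries, 6.81, 11.6, 19.3, 14.5 and 7.08 CPM in the Sub-fertile ones and 15.1, 27.8, 7.86, 19.4 and 13.9 CPM in the Infertile ones. SLC43A2 (LAT4) was highest in Infertile 2 and lowest in Sub-fertile 1, and its Infertile minus Sub-fertile difference of 0.50 ± 0.33 (unadjusted p = 0.150) was 0.24 without Infertile 2.

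More members were called between library sets than between classes. With class in the model, 12 of 49 members differed between the set of 5 and the set of 8 at an adjusted p of 0.05 (edgeR), a share below the 30.7% of all genes. SLC3A1, SLC36A4 and SLC38A9 were higher in the set of 5, by 0.34 ± 0.08, 0.59 ± 0.16 and 0.41 ± 0.13 on the log2 scale. SLC1A5, SLC6A6, SLC6A8, SLC6A9, SLC7A1, SLC7A4, SLC38A10, SLC43A1 and SLC43A2 were lower, by -0.56 (SLC6A8) to -0.93 (SLC6A6). The most precise was SLC38A10 at -0.89 ± 0.06. Of the 49, 6 (12.2%) separated the set of 5 from the other 10 libraries without overlap, against 19.6% of all genes. SLC7A1, SLC43A1, SLC1A5, SLC38A10 and SLC6A6 lay below (5 of 49, against 11.5% of all genes) and SLC38A9 above (1 of 49, against 8.12%). As the set of 5 held 3 Sub-fertile, 2 Infertile and 0 High-fertile libraries, a difference of these members from High-fertile cannot be told apart from the set without the covariate.

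**Figure D4:**
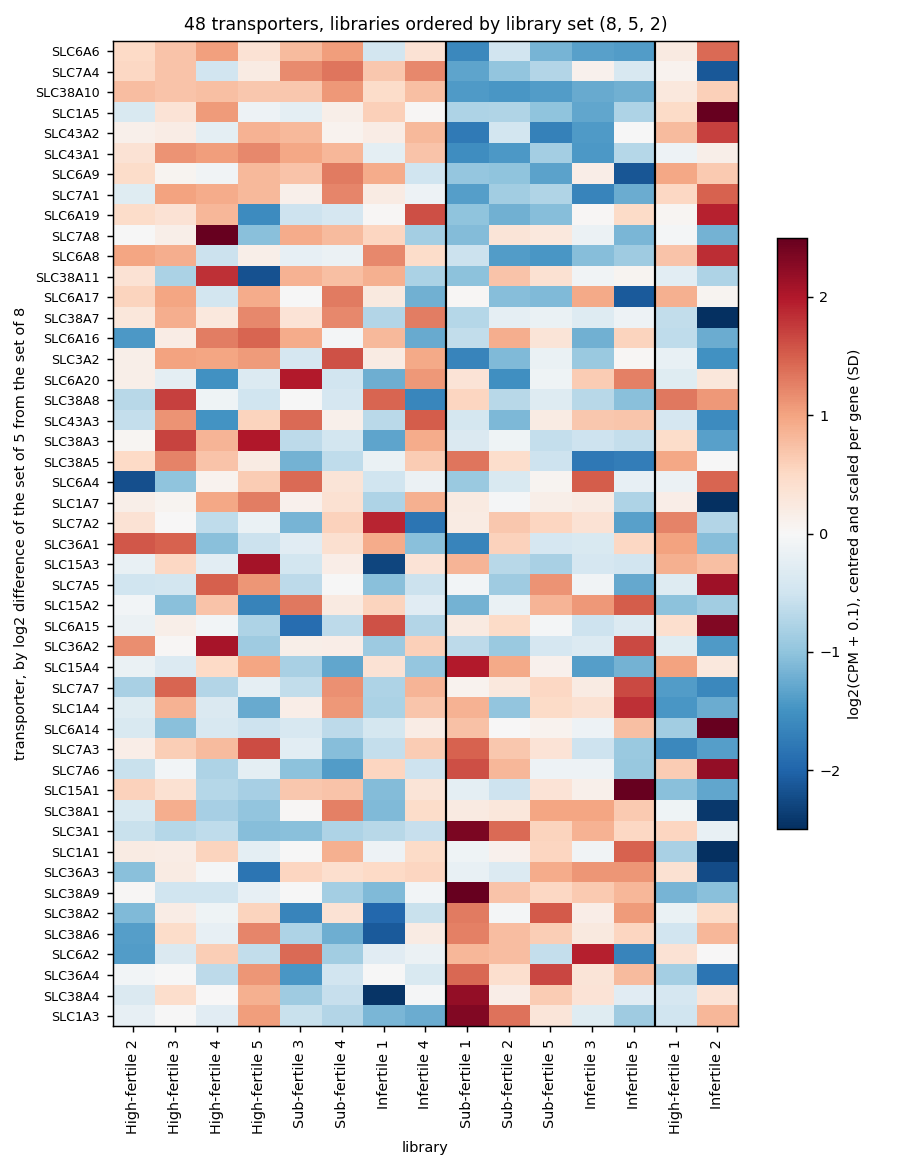
Levels of 48 of the 49 expressed transporters (rows) in the 15 libraries (columns), as log2 CPM centred and scaled per gene, with libraries grouped by set (8, 5 and 2, black lines) and rows ordered by the difference between the set of 5 and the set of 8. The top rows, among them SLC6A6 and SLC38A10, are low across the set of 5, SLC38A9 near the bottom is higher there, and Infertile 2 at the right edge holds many of the deepest colours, some beyond the end of the colour scale.

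Most transporters varied more over the 15 libraries than the typical gene. The median CV of the 49 was 37.5%, against 26.6% over 16914 genes at the same level cut, and 37 of 49 were above that value. This CV also holds differences between library sets and counting error, and the genes were not matched for level. The steadiest were SLC36A1, SLC15A4 and SLC3A1, the only ones under 15%, and 9 were over 75%, led by SLC36A2 and SLC6A16. The highest library exceeded the lowest more than 10-fold for 10 members and less than 2-fold for 7 (SLC3A1, SLC3A2, SLC6A4, SLC7A7, SLC15A4, SLC36A1 and SLC38A2). The extremes were spread unevenly over the libraries. Infertile 2 had the highest level of 10 members, among them SLC1A5, SLC6A14, SLC7A1 and SLC7A5, and the lowest of 13, among them SLC1A1, SLC7A8 and SLC36A2. It was also the library with the lowest median rank correlation to the others (0.924). The share of all genes with an extreme in each library was not counted, so these counts show nothing particular to transporters. High-fertile 5 and Sub-fertile 1 each had the highest level of 7 members, and Infertile 5 of 6, among them SLC1A1, SLC1A4, SLC15A1 and SLC15A2.

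Other genes of amino acid sensing and use were counted from lists chosen by function, again with no gene past an adjusted p of 0.05 in edgeR. Of 15 tested genes of the amino acid response, which cells switch on when amino acids run short, 0 had an unadjusted p under 0.05 in Sub-fertile and 1 in Infertile against High-fertile, SESN2 (-0.60 ± 0.24, log2), which was -0.46 with the library set as a covariate (unadjusted p = 0.0863). With that covariate 0 and 1 of the 15 had an unadjusted p under 0.05, the 1 being another gene. Of 17 genes of mTORC1 and its amino acid sensors, 2 had one in Sub-fertile against High-fertile (TSC2 lower, LAMTOR3 higher) and 3 in Infertile against High-fertile. Those were TSC1 (-0.25 ± 0.10) and TSC2 (-0.31 ± 0.14), which together restrain mTORC1, and LAMTOR3 (0.29 ± 0.14), part of its lysosomal anchor. With the library set as a covariate 0 and 1 of the 17 had an unadjusted p under 0.05: TSC1 was -0.30 in Infertile, while TSC2 was -0.08 in Sub-fertile and -0.17 in Infertile and LAMTOR3 0.02 and 0.11. Of 12 genes of arginine use, 2 had one in Sub-fertile and 3 in Infertile against High-fertile. ODC1, the enzyme that starts polyamine synthesis from ornithine, was higher in both, by 0.30 ± 0.12 (unadjusted p = 0.0224) and 0.48 ± 0.12 (unadjusted p = 0.00118). With the library set as a covariate these were 0.31 and 0.46, both at an unadjusted p under 0.05. AZIN2, a regulator of that enzyme, was lower in Sub-fertile by -1.13 ± 0.52, and by -0.70 with the covariate (unadjusted p = 0.298). NOS1, a nitric oxide synthase, was lower in Infertile by -0.70 ± 0.25, and ASL, which makes arginine from argininosuccinate, by -0.63 ± 0.29. With the covariate they were -0.55 and -0.44, past an unadjusted p of 0.05 in neither case. A further list of 7 tested genes outside the 8 families held 5 amino acid carriers, the nucleotide carrier SLC17A9 and SLC7A6OS, which is not a transporter. Of these, SLC25A13, the mitochondrial aspartate and glutamate carrier, was higher in Infertile than High-fertile by 0.68 ± 0.19 (unadjusted p = 0.00245), and CTNS, the lysosomal cystine exporter, was lower by -0.35 ± 0.12 (unadjusted p = 0.0102). The covariate left SLC25A13 at 0.77 (unadjusted p = 0.00209) and CTNS at -0.32 (unadjusted p = 0.0140). In Sub-fertile against High-fertile SLC25A13 was 0.38 without the covariate (unadjusted p = 0.0616) and 0.50 with it (unadjusted p = 0.0332). No gene of the 4 lists had an unadjusted p under 0.05 in Infertile against Sub-fertile. These genes were read against the same backgrounds as the members, 13.7%, 11% and 2.63% of all genes. For the fits with the library set as a covariate the backgrounds were 2.51%, 7.66% and 1.75%.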

How the data were processed

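Per the labels' protocols, endometrial RNA of the 15 heifers went into stranded mRNA libraries (TruSeq). The authors deposited whole-number counts per gene, and FastQC, Subread, featureCounts, edgeR and the build UMD3.1 are named in the submitters' processing notes, with versions, strand setting and the handling of ambiguous reads not stated there. The deposited FPKM values come from the same table, and over 7628 genes the totals they imply differed from the summed counts by at most 0.382%. They were used for levels between genes only.

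The 63 members, the pathway and marker lists, the library sets and the rule for named genes were chosen with earlier results of these data known. Named members are the 8 with the smallest unadjusted p in each comparison, the 5 with the widest CPM range, the 5 with the highest FPKM and a fixed set of 19. The count model was fitted by edgeR 4.0.16 under R 4.3.3 (filterByExpr by class, TMM, glmQLFit robust, glmQLFTest) with 1 mean per class and 12 residual degrees of freedom, two-sided, and adjusted by Benjamini-Hochberg over 19962 genes. Unless another tool is named, each p of a gene is edgeR's. SE is the log2 fold change divided by the root of F. CPM uses TMM factors. Library sets are average-linkage clusters of 428 tested pseudogene and ribosomal RNA entries, formed without the class. Alternatives used other scaling, filters and libraries, DESeq2 1.42.0, limma-voom 3.58.1 and covariates for set or markers. Correlations used 100000 permutations, or all orders within the set of 8. The fits were tested on simulated data. The reference table holds gene names of ARS-UCD2.0 and no sequence, so no coordinates or sequences are printed. All 63 symbols matched it. Of the members, 1 enters the counts and is otherwise not reported here.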

Additional observations from a re-analysis of the deposited data

Results flagged for a closer look

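Of 93 groups of 5 libraries (31 named members in 3 classes), 8 held a library whose gap to its nearest neighbour exceeded 0.71 of the range of its class. Chance flags about 1 in 20 groups of genes chosen without regard to their spread, but some of these members were named for a wide range or a small p, so that rate does not apply to them. Infertile 2 was that library for 3 members. It measured 29.0 CPM for the broad amino acid carrier SLC6A14, next to 9.75 CPM in its class, 62.2 CPM for the large neutral amino acid exchanger SLC7A5, next to 20.2 CPM, and 40.96 CPM for the glutamine carrier SLC1A5, next to 14.5 CPM. In High-fertile 4, SLC7A8 was at 181 CPM, next to 46.8 CPM. In High-fertile 5 the glutamate carrier SLC1A3 was at 3.88 CPM, next to 1.84 CPM. High-fertile 1 had the lowest SLC38A10 of its class, 110.9 CPM, next to 125.6 CPM, and is, like Infertile 2, a library of the set of 2. Sub-fertile 1 had 60.3 CPM of SLC38A4, next to 20.98 CPM. Infertile 4 had 5.39 CPM of SLC38A3, next to 2.31 CPM in its class and inside the High-fertile range.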

How the results depend on the processing

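No paired analysis applied, as each heifer gave 1 library and belonged to 1 class. The labels give no replicate numbers, and those used here only name libraries in their listed order. In Sub-fertile against High-fertile the 2 members at an unadjusted p of 0.05 became 1 with upper-quartile factors or limma-voom, 4 with DESeq2 or only the set of 8, and 5 with only the 10 libraries compared. With each library left out the count ran from 1 to 8, the 8 without Sub-fertile 4. In Infertile against High-fertile the 2 became 4 with DESeq2, limma-voom or the epithelium markers as a covariate, 1 within the set of 8, 5 without both libraries of the set of 2 (chosen after seeing the data), and 2 to 8 with each library left out, the 8 without Infertile 2. In Infertile against Sub-fertile the 3 became 1 with limma-voom, with the library set or the smooth muscle markers as a covariate, or with only the 10 libraries compared, and 1 to 6 with each library left out, the 1 without Sub-fertile 2 and the 6 without Infertile 3. Over all 3 classes the 3 ran from 3 to 5, the 5 without Infertile 5. Shares of all genes are given above for DESeq2, limma-voom and the set covariate, but not for the other settings. Without those shares a changed count of members cannot be told apart from a change over all genes. The number of expressed members, 49, stayed within 1.5 times under both other level cuts. The correlation of SLC3A2 with SLC7A5 turned from -0.04 to 0.35 without Sub-fertile 1 and Infertile 2 and to 0.51 in the set of 8, and that with SLC7A8 from 0.36 to -0.078 in the set of 8. That with SLC7A6 went from -0.74 to -0.50 and -0.20, past the threshold in neither, and that with SLC7A7 from 0.37 to 0.56 with class means subtracted (permutation p = 0.0292). Among 1608 alternative values of 67 named log2 fold changes, 41 lost and 64 gained an unadjusted p under 0.05. The 1 reversal of a value with such a p was SLC6A6 in Infertile against Sub-fertile, 0.01 overall and -0.47 in the set of 8 (edgeR unadjusted p = 0.0270), and 118 values without one changed sign. The cause of these changes was not tested. Near 1 CPM, as for SLC6A19, counting error adds to the spread between heifers.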
